A study of Mus musculus with 27 samples.

Results

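Primary mouse hepatocytes treated with the sterol 24(S)-saringosterol were compared with hepatocytes given the ethanol vehicle alone. The comparison takes the 3 saringosterol and the 3 vehicle hepatocyte libraries, 6 of the 27 samples of the series, as the labels name them, and reads 55487 genes in each. The whole series gave vehicle, 10 µM saringosterol or 1 µM of a synthetic compound for 24 h to hepatocytes, microglia and macrophages derived from bone marrow (BMDM), 3 libraries a group. That compound, GW in this text, appears in the labels as GW3596, GW3965 or GW3964, of which GW3965 is an established agonist of the liver X receptors (LXR). According to its title, the study asks how saringosterol acts on lipid homeostasis and inflammatory pathways in different cells.

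Hepatocytes were plated on collagen in a low-glucose DMEM with serum and treated for 24 h in a serum-free medium based on Williams' E, per the labels' protocols. All 3 hepatocyte groups shared these steps, and no genetic change is stated for any of them. The medium of the microglia and BMDM was DMEM/F12 without serum, supplemented with albumin, insulin, transferrin, selenium and M-CSF, so medium and cell type go together and cannot be told apart. The strain, sex and age of the mice are not in the labels. Nor do they state the origin of the 3 replicates of each group (animal, isolation or well), and p-values therefore measure the spread between these libraries only.

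Saringosterol is a sterol of plants and algae that differs from cholesterol in its side chain. Liver cells control their sterols through a pair of opposed systems. SREBP-2, the product of Srebf2, is held in the endoplasmic reticulum by SCAP and the INSIG proteins while sterols are plentiful; when they are scarce it is cleaved and switches on genes of cholesterol synthesis and uptake. LXR are nuclear receptors activated by oxidised sterols, and their targets include the cholesterol exporter Abca1 and Srebf1, whose product SREBP-1c drives fatty acid synthesis.

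The 6 libraries held 30295862 to 40727673 counts in genes. A count of 0 allows up to 3 counts, or 0.0737 to 0.0990 CPM (counts scaled to the library's total), for counting error only. On the first principal component of the 9 hepatocyte libraries, with 17.3% of the variance, the saringosterol libraries lay at 10.9 to 25.7, the vehicle libraries at -18.3 to -3.4 and the GW libraries at -16.2 to 3.1. Of the vehicle libraries, the second lay closest to the saringosterol group. Hepatocyte markers such as Alb, the gene of serum albumin, were abundant in every library: the 16 markers summed to 31055 to 33377 CPM with vehicle and 32215 to 33268 CPM with saringosterol. Alb itself stood at 6974, 6837 and 6872 CPM with vehicle and 6854, 6548 and 6372 CPM with saringosterol. The groups overlapped and the change did not pass the test (log2 change -0.06 ± 0.04, edgeR adjusted p = 0.45). Of the 16 markers, Ahsg, the gene of fetuin-A, was called higher (0.23, edgeR adjusted p = 0.01; up to 0.14 without saringosterol library 2 or vehicle library 3) and the protease inhibitor Serpina1a lower (-0.18, 0.031; up to 0.2 without saringosterol libraries 2 or 3 or vehicle libraries 1 or 3). Of the 15 markers of Kupffer cells and other macrophages, 13 were tested and none was called, and their sum was 375 to 401 CPM with vehicle and 386 to 413 CPM with saringosterol, against 41204 to 43116 CPM in vehicle-treated microglia. Cd68 and Mpeg1 made up most of the hepatocyte sums, at 349 ± 19.3 and 29.3 ± 2.96 CPM (SD, n = 3) with vehicle, and the other 11 tested members were each below 5 CPM. The median of the tested members was -0.17, with the Kupffer cell marker Clec4f at -1.12 ± 0.49 (edgeR adjusted p = 0.26) and Lyz2 at -0.59 ± 0.20 (0.14). Timd4, a marker of resident Kupffer cells, was at 0 in the vehicle-treated hepatocytes. Markers of sinusoidal endothelium summed to 11.8 to 14.6 and 11.2 to 12.1 CPM, those of stellate cells to 2.42 to 3.44 and 2.34 to 2.95 CPM, and those of cholangiocytes to 626 to 656 and 615 to 711 CPM, and none of their tested members was called. Stab1 and Egfl7 held most of the endothelial sum. The median of the 8 tested endothelial markers was -0.65, and 7 were below 0, against 49.9% of all genes. Kdr stood at 1.16 ± 0.442 CPM with vehicle and 0.532 ± 0.0857 CPM with saringosterol (-1.13 ± 0.37, edgeR adjusted p = 0.12) and Pecam1 at 0.686 ± 0.276 and 0.288 ± 0.0212 CPM (-1.23 ± 0.48, 0.19), both without overlap, while Tek and Cdh5 stood at -1.61 ± 0.67 and -1.15 ± 0.68 (0.22 and 0.41). The part of these low-level shifts in the results was not tested. The 6 erythroid markers summed to 23.7 to 27.3 CPM with vehicle and 17.2 to 23.3 CPM with saringosterol, and 1 of the 2 tested, Alas2, the haem synthesis enzyme of red cells, was called lower (-0.37 ± 0.10, edgeR adjusted p = 0.036; up to 0.23 without saringosterol libraries 2 or 3 or vehicle libraries 1 or 3). Lymphocyte markers stayed near the floor, with sums of 0.0529 to 0.215 and 0.310 to 0.363 CPM. In such bulk libraries, fewer cells of a type and less RNA per cell cannot be told apart.

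Saringosterol lowered genes of cholesterol synthesis and of its control by SREBP, and the changes were small in most other genes. Of 16098 genes tested, edgeR's quasi-likelihood test called 307 (1.91%) at an adjusted p under 0.05, 143 higher (0.888%) and 164 lower (1.02%). The median size of a called change was 0.31 on the log2 scale. At least 2-fold changes were called in 16 genes, 9 higher and 7 lower. Among the lowered ones were Idi1, Fdps, Insig1, the muscle-type AMP deaminase Ampd1 and the pseudogene Gm13502, all of whose 31-base stretches also occur in Idi1. Among the 9 raised ones were Mup4, Mup18, the mitochondrial tRNA mt-Tq and 2 small nucleolar RNAs, Snord118 and Snord13; Ampd1 and these small RNAs were named after their values were seen. Membership in the cholesterol, SREBP or fatty acid synthesis lists accounted for 22 of the 164 lowered genes. The size of the whole call set depended on single libraries: 803 genes were called without vehicle library 2, 140 without vehicle library 1, 86 without vehicle library 3, 203 without saringosterol library 1 and 93 without saringosterol library 2. Protein-coding genes gave 73 higher and 158 lower calls, but 107 higher and 99 lower when scaled and tested without the other gene classes.

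**Figure D1:**
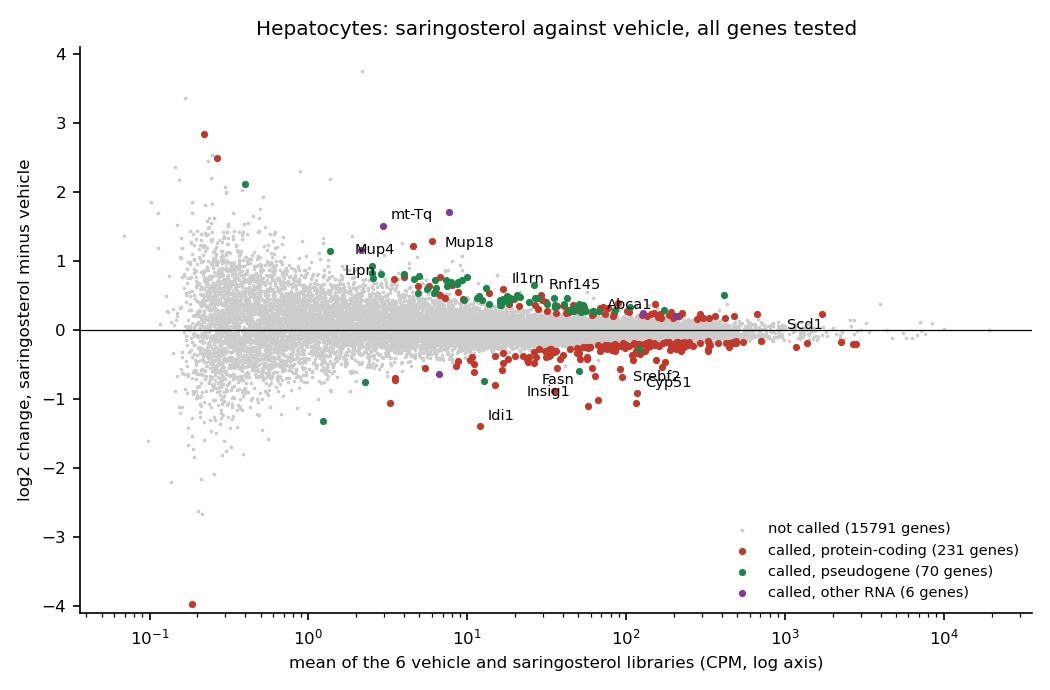
Log2 change with saringosterol against vehicle (vertical axis) over the mean level in CPM (horizontal log axis) for each of the 16098 genes tested in hepatocytes, from 3 libraries per group. Grey points were not called, and colours mark the called protein-coding genes (231), pseudogenes (70) and other RNAs (6); the labelled genes Idi1, Insig1 and Cyp51 lie below nearly all others of their level.

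Genes of cholesterol synthesis were lower at early and late steps of the pathway, from Hmgcs1 to Dhcr7. Of the 19 members listed here, all tested, 12 fell and none rose, against 1.02% of all genes that fell, and the list's median log2 change was -0.42 against 0.00 for all genes. Below 0 were 17 members, against 49.9% of all genes. In 15 of the 19 the 3 saringosterol libraries lay below all 3 vehicle libraries, which held for 9.94% of all genes. The number of lowered members was 12 with each of the other tools, scalings and filters tried, and ran from 9 without vehicle library 3 to 13 without vehicle library 2.

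At the head of the pathway, Hmgcs1 (chr13:119690379-119708260, GRCm38), the synthase that makes HMG-CoA, stood at 106, 122 and 119 CPM with vehicle and 68.9, 76.8 and 70.7 CPM with saringosterol. The groups did not overlap, and it fell to 62.3% of the vehicle level (log2 change -0.68 ± 0.06, SE, n = 3 per group, edgeR adjusted p = 3.1e-09). Mevalonate kinase, Mvk, fell by 0.47 (edgeR adjusted p = 0.0078), while the next kinase Pmvk (-0.25 ± 0.12, adjusted p = 0.3) and the decarboxylase Mvd (-0.38 ± 0.13, adjusted p = 0.14) did not pass the test. Mvk and the other members of this list given without single-library values here, namely Lss, Hsd17b7, Nsdhl and Dhcr7, were named after their values were seen.

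The isoprenoid steps held the deepest changes. Idi1 (chr13:8885501-8892451), the isomerase of isopentenyl diphosphate, showed 16.2, 19.8 and 16.1 CPM in the vehicle libraries and 6.22, 7.2 and 6.4 CPM in the saringosterol libraries. With no overlap between groups it fell to 38% of vehicle (-1.39 ± 0.11, edgeR adjusted p = 7.2e-10), the largest fall among called genes with at least 1 CPM. Fdps (chr3:89093588-89101959), which makes farnesyl diphosphate, was low at 4.59, 3.84 and 4.74 CPM with vehicle and lower at 2.08, 2.2 and 2.04 CPM with saringosterol (-1.06 ± 0.18, edgeR adjusted p = 0.001). A processed pseudogene that shares 67.6% of its 31-base stretches with Fdps, Gm3571, fell as well (16.9, 13.8 and 17 to 9.17, 9.73 and 9.72 CPM; -0.74 ± 0.10, edgeR adjusted p = 5.2e-05). How the authors' counting treated reads that fit several genes is not given, so the levels of Idi1 and Fdps and of these copies are uncertain. Ggps1, the branch enzyme towards prenylated proteins, stood at 0.11 ± 0.10 (adjusted p = 0.64). Fdft1 (chr14:63145150-63179578), squalene synthase, fell from 78.8, 73.8 and 80.6 CPM to 48.3, 49.7 and 49.2 CPM (-0.66 ± 0.06, edgeR adjusted p = 7.6e-09).

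Among the sterol-forming steps, Cyp51 (chr5:4081145-4104746), the lanosterol demethylase, fell most of the genes listed. It stood at 143, 159.7 and 153 CPM with vehicle and 84.8, 80.9 and 77.5 CPM with saringosterol. The groups did not overlap, and the level was 53.4% of vehicle (-0.91 ± 0.05, edgeR adjusted p = 4.3e-13). Squalene epoxidase, Sqle (chr15:59315077-59331192), was at 174, 187 and 172 CPM with vehicle and 128, 133 and 136 CPM with saringosterol (-0.43 ± 0.05, edgeR adjusted p = 1.5e-06). The methylsterol oxidase Msmo1 fell by 0.46 (edgeR adjusted p = 6e-07). Lanosterol synthase Lss changed by -0.55 ± 0.07, Hsd17b7 by -0.42 ± 0.08, Nsdhl by -0.32 ± 0.07 and Dhcr7, which makes cholesterol from its last precursor in one branch, by -0.25 ± 0.06, all with edgeR adjusted p under 0.05. The members that did not pass the test were, beside Pmvk, Mvd and Ggps1, Tm7sf2 (-0.23, adjusted p = 0.16), Acat2 (-0.17, 0.14), Sc5d (-0.15, 0.13) and Ebp (0.04, 0.8). Per length, in the authors' TPM values, the vehicle levels of the pathway ran from 2.92 TPM for Fdps to 96.5 TPM for Cyp51.

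Insig1, Srebf2 and Stard4 fell alongside the pathway. Of the 12 genes listed for SREBP processing and sterol transport, 3 fell (1.02% of all genes fell) and none rose, and the median log2 change was -0.15. In 6 of them every saringosterol library lay below every vehicle library, against 9.94% of all genes. The number of lowered members was 5 with DESeq2 and 6 without vehicle library 2.

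Insig1 (chr5:28071363-28078662), a sterol-regulated retention factor of SREBP, held 86, 88.8 and 90.7 CPM with vehicle and 43.4, 44.2 and 44 CPM with saringosterol, and it fell to 49.6% without overlap (-1.01 ± 0.05, edgeR adjusted p = 2.2e-13). Its relative Insig2, which is not a classical SREBP target, stood at 0.00 ± 0.04 (adjusted p = 0.99). Srebf2 (chr15:82147181-82205379) was at 113, 107 and 109 CPM with vehicle and 71.4, 72.1 and 79.6 CPM with saringosterol, without overlap, at 67.7% of vehicle (-0.56 ± 0.06, edgeR adjusted p = 1.1e-07). Stard4, which carries cholesterol between membranes, was at 19.6, 20.3 and 19.9 CPM with vehicle and 13.4, 12.5 and 14 CPM with saringosterol (-0.58 ± 0.09, edgeR adjusted p = 0.00025). Members without a call were Scap (-0.20, adjusted p = 0.063), the HDL receptor Scarb1 (-0.17, 0.059), the lysosomal cholesterol exporters Npc1 (0.05, 0.73) and Npc2 (-0.13, 0.19), the proteases Mbtps1 (-0.10, 0.32) and Mbtps2 (0.17, 0.41), Lrp1 (-0.03, 0.87) and Srebf1.

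**Figure D2:**
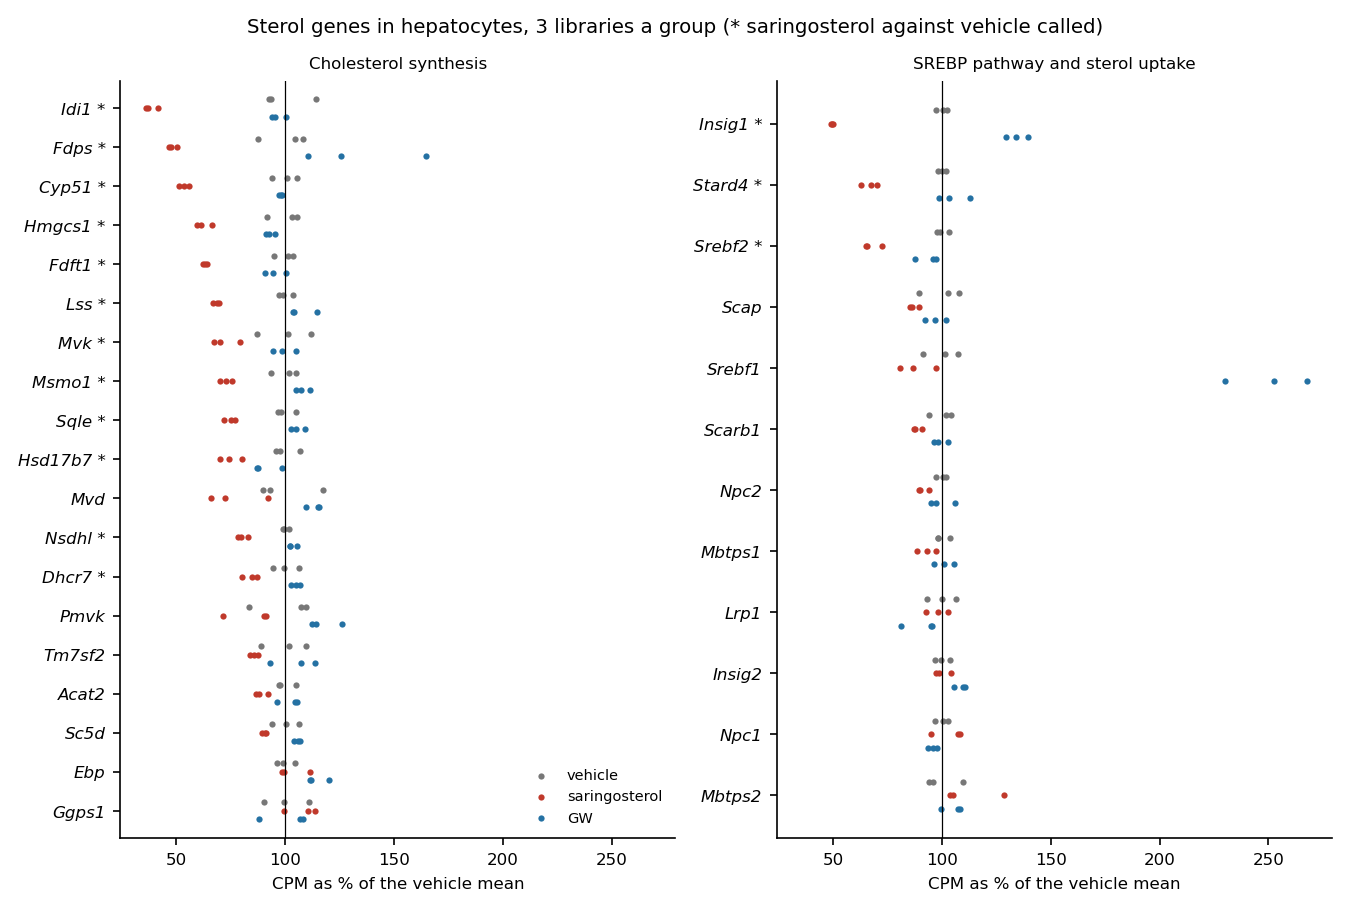
CPM of each library as a percent of the gene's vehicle mean, for the genes of the cholesterol synthesis and SREBP lists, in hepatocytes with vehicle, 10 µM saringosterol or 1 µM GW (3 libraries each, 1 point per library). An asterisk marks genes called with saringosterol; the saringosterol points of Idi1, Fdps and Insig1 lie farthest below the vehicle points, and the GW points lie near or above them.

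Bases before the start sites of 3 lowered genes are shown because their proteins head the pathway or control it: Hmgcs1, Insig1 and Srebf2. They come from RefSeq's table on GRCm38.p6, read 5′ to 3′ on the plus strand that all 3 genes use, and end before the first annotated base of the gene. Capitals mark TCACNCCAC, a spelling of the sterol regulatory element, and CCAAT, the element bound by NF-Y, on either strand (on the minus strand CCAAT reads ATTGG). No matches of these motifs overlapped each other. The windows are chr13:119690101-119690350 for Hmgcs1, chr5:28071162-28071362 for Insig1 and chr15:82147019-82147180 for Srebf2.
Hmgcs1: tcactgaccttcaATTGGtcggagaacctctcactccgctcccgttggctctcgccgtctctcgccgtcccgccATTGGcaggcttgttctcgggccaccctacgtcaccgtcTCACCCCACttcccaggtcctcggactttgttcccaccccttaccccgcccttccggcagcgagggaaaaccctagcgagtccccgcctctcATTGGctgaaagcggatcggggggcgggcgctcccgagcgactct
Insig1: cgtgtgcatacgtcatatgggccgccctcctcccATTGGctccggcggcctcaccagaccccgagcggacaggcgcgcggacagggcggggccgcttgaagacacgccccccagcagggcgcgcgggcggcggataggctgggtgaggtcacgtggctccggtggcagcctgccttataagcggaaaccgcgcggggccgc
Srebf2: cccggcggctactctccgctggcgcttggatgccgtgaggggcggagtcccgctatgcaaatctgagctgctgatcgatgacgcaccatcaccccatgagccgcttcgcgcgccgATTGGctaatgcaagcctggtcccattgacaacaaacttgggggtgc
The table held promoters of 11 of the 15 lowered members of these lists and of 14 uncalled members. In 300-base windows, from 250 bases before the start to 50 after it, TCACNCCAC was found in 1.24% of all 32851 promoters, that is for 1.44% of all 27025 genes, in 1 of the 11 lowered genes (Hmgcs1, as TCACCCCAC with its first base at -137) and in 0 of the 14 uncalled ones. CCAAT was found in 37.4% of all promoters, for 41.1% of all genes, in 11 of the 11 lowered genes and in 9 of the 14 uncalled ones. A match is a description of letters and no evidence of binding, and no match says only that these letters are not in the window.

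Genes of fatty acid synthesis were lowered to a smaller extent than those of cholesterol synthesis. Of the 18 listed genes 17 were tested, 7 fell (1.02% of all genes fell), none rose, and the median was -0.27. In 11 of them every saringosterol library lay below every vehicle library (9.94% of all genes), and in 1 every one lay above (9.42%). Fasn (chr11:120805846-120824547), fatty acid synthase, stood at 73.5, 69 and 74.1 CPM with vehicle and 47.5, 47.5 and 53.4 CPM with saringosterol. The groups did not overlap, and the level was 68.5% of vehicle (-0.54 ± 0.06, edgeR adjusted p = 2.5e-06). The desaturases of polyunsaturated fatty acids followed, with Fads1 (chr19:10182888-10196877) at 204, 193 and 203 CPM with vehicle and 138, 134 and 144 CPM with saringosterol (-0.53 ± 0.05, edgeR adjusted p = 2.2e-08) and Fads2 (chr19:10062765-10101746) at 129.7, 117 and 138 CPM with vehicle and 96.8, 91.4 and 95.7 CPM with saringosterol (-0.44 ± 0.06, adjusted p = 9.7e-05). Both desaturase genes had every saringosterol library below every vehicle library. Acly, which makes cytosolic acetyl-CoA from citrate, fell by 0.27 (edgeR adjusted p = 0.001), and Slc25a1, the mitochondrial citrate carrier that feeds it, by 0.30 (edgeR adjusted p = 0.00063). The elongase Elovl6 fell by 0.52 (edgeR adjusted p = 0.024), a call that was lost without saringosterol libraries 1 or 2 or vehicle library 3 (adjusted p up to 0.18). The lipogenic regulator Thrsp, named after its value was seen, was the seventh (-0.31 ± 0.07, edgeR adjusted p = 0.025).

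Scd1, the stearoyl-CoA desaturase that is among the best known LXR and SREBP-1c targets, did not pass the test. It held 904, 922 and 993 CPM with vehicle and 902, 886 and 899.6 CPM with saringosterol (-0.07 ± 0.05, edgeR adjusted p = 0.54). Srebf1 was at 125, 106 and 118 CPM with vehicle and 93.8, 101 and 113 CPM with saringosterol, overlapping (-0.18 ± 0.07, edgeR adjusted p = 0.2), and was called lower without vehicle library 2 (adjusted p = 0.047). The carboxylase Acaca stood at 0.16 (adjusted p = 0.43), Acacb at -0.36 (0.17), Me1 at -0.02 (0.84) and Elovl5 at 0.04 (0.74). Lowered genes near this list were Fabp5, a fatty acid binding protein, and Lpin1, a phosphatidate phosphatase and transcriptional cofactor. Fabp5 (chr3:10012548-10016607) was at 18.6, 18 and 20.6 CPM with vehicle and 13.6, 9.51 and 10.0 CPM with saringosterol (-0.80 ± 0.11, edgeR adjusted p = 8.7e-05), and its near copy Gm6166, a pseudogene, was lower too (-0.75 ± 0.20, adjusted p = 0.045). Lpin1 (chr12:16535669-16646966) was at 59.4, 66.9 and 66 CPM with vehicle and 44.4, 48.8 and 54 CPM with saringosterol (-0.38 ± 0.06, edgeR adjusted p = 0.0011). Plin2, the coat protein of lipid droplets, was at 2913, 2764 and 2883 CPM with vehicle and 2536, 2463 and 2431 CPM with saringosterol (-0.20 ± 0.04, edgeR adjusted p = 0.0047; 0.058 without vehicle library 3). Lpin1 and Plin2 were the lowered members of 22 genes of triglyceride and lipid droplet metabolism (1.02% of all genes fell). None of the 22 rose, and their median was -0.08.

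None of the LXR targets listed here was called higher in the main fit. The list does not cover every gene that GW raised: Rnf145 and Errfi1, outside it, were called higher with saringosterol and with GW (values below). Of 18 listed targets 17 were tested, Fasn alone was called lower, and the median was -0.10. In 2 targets every saringosterol library lay above every vehicle library (9.42% of all genes), and in 5 every one lay below (9.94%). Without vehicle library 2, 3 targets were called lower. Abca1 (chr4:53030787-53159895), the exporter of cholesterol to apolipoprotein A-I, held 56.5, 63.7 and 64.9 CPM with vehicle and 61.8, 73 and 80.5 CPM with saringosterol. The lowest saringosterol library lay within the vehicle range (0.22 ± 0.07, edgeR adjusted p = 0.12). Over the alternatives its log2 change ran from 0.13 to 0.32 and its adjusted p from 0.0069 to 0.43, and it was called without saringosterol library 1 (adjusted p = 0.0072). Lpcat3, which remodels phospholipids, stood at 122, 110.5 and 118 CPM with vehicle and 109, 109.8 and 111 CPM with saringosterol (-0.09 ± 0.05, edgeR adjusted p = 0.39). The sterol exporter Abcg1 was near the floor, at 0.149, 0.106 and 0.162 CPM with vehicle and 0.0662, 0.167 and 0.245 CPM with saringosterol. The biliary sterol exporters Abcg5 (1.82 ± 0.469 CPM with vehicle, SD, n = 3) and Abcg8 (2.67 ± 0.461 CPM) stood at -0.10 ± 0.25 and -0.23 ± 0.20 (edgeR adjusted p = 0.89 and 0.6). Apoe, one of the most abundant genes of these cells, changed by -0.12 ± 0.04 without a call (edgeR adjusted p = 0.18), and was called lower without vehicle library 2 (adjusted p = 0.021). The receptor genes Nr1h3 (LXR alpha; -0.13 ± 0.06, adjusted p = 0.26) and Nr1h2 (LXR beta; -0.06 ± 0.05, adjusted p = 0.64) were not called, nor were Pltp (-0.10, 0.66), Lpl (-0.49, 0.26), Arl4c (0.31, 0.18) or Mylip, which was at about the floor. Cyp7a1, the first enzyme of the classical bile acid pathway, had 0 to 2 counts in a library and was not tested.

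The same vehicle libraries served for GW, so the values of both compounds are given side by side, at 10 µM for saringosterol and 1 µM for GW. GW against vehicle called 178 genes (1.11%), 116 higher (0.721%) and 62 lower (0.385%; 35 without GW library 1 and 37 without vehicle library 3). Of the 17 LXR targets tested 7 rose and none fell with GW, with a median of 0.58. Abca1 held 241, 227 and 234 CPM with GW (log2 change 1.92, edgeR adjusted p = 1.7e-14), Srebf1 294, 268 and 311 CPM (1.32, adjusted p = 3.6e-11) and Scd1 3788, 3219 and 3760.1 CPM (1.93, adjusted p = 1.4e-20), each with every GW library above every vehicle library. Fasn was at 166, 150.3 and 181 CPM with GW (1.20, adjusted p = 3.1e-14). Of the 17 fatty acid genes 6 rose with GW and none fell, with a median of 0.23. In the cholesterol list, GW called 0 of 19 genes in either direction, and the median was 0.07. In the SREBP list GW called 2 higher and none lower: Srebf1 and Insig1 (0.43, adjusted p = 2.6e-06). Srebf2 stood at 105, 96.1 and 107 CPM (-0.10, adjusted p = 0.71). Fabp5 rose with GW (0.80, edgeR adjusted p = 1.2e-05), as did Lpin1 (0.48, adjusted p = 1.2e-05) and Fads2 (0.83, adjusted p = 2.8e-10).

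**Figure D3:**
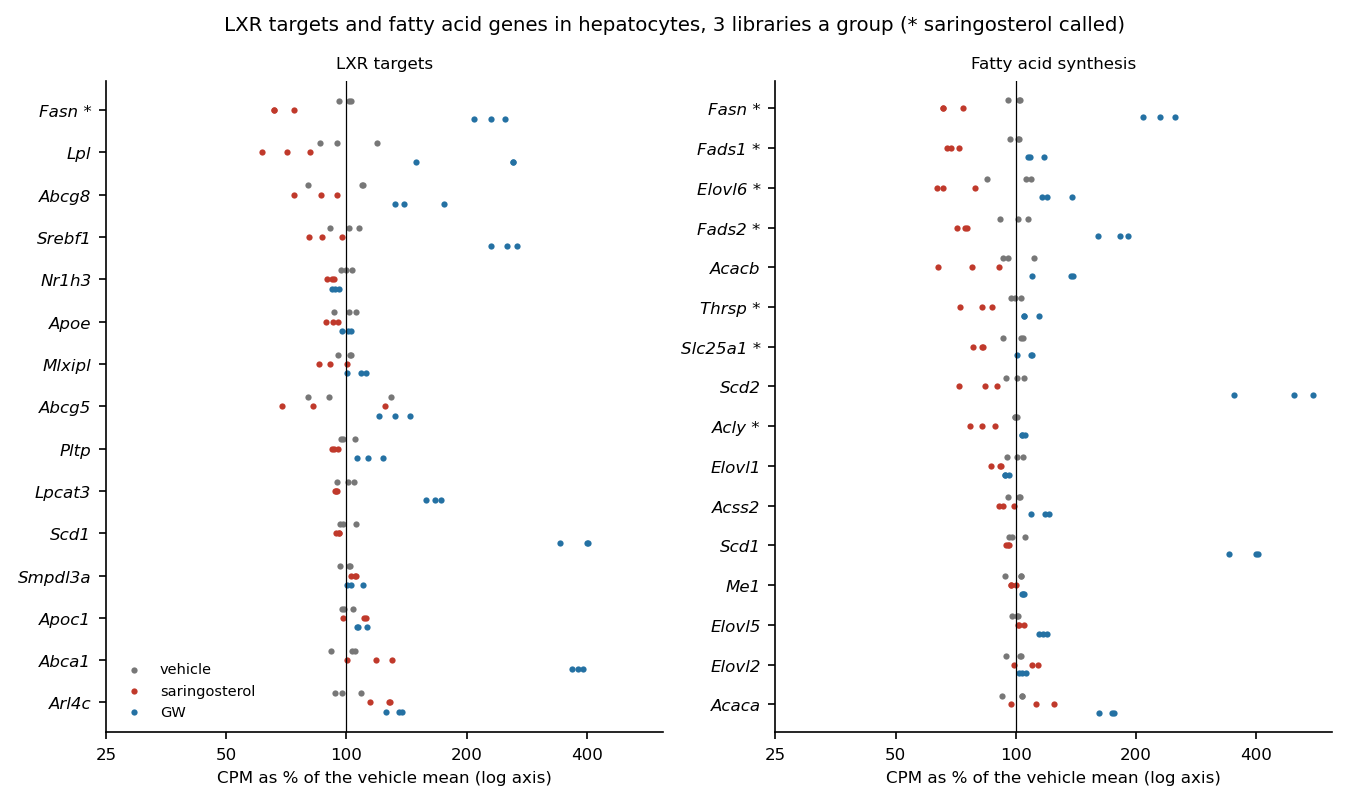
CPM of each library as a percent of the gene's vehicle mean, on a log axis, for LXR targets and fatty acid synthesis genes with a vehicle mean of at least 1 CPM, in hepatocytes with vehicle, 10 µM saringosterol or 1 µM GW (3 libraries each). Most saringosterol points lie near or below the vehicle mean, while the GW points of Scd1, Abca1, Srebf1 and Fasn lie above all their vehicle points.

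Some genes outside these lists rose with saringosterol. Rnf145 (chr11:44518964-44565520), a sterol-sensing ubiquitin ligase of the endoplasmic reticulum, was at 24.1, 24.9 and 23 CPM with vehicle and 29.9, 33.7 and 38.4 CPM with saringosterol. Its groups did not overlap (0.50 ± 0.08, edgeR adjusted p = 0.00032), and with GW it stood at 43, 43.7 and 46.1 CPM (0.88, adjusted p = 5.5e-09). Errfi1, a feedback inhibitor of the EGF receptor, was at 139, 126 and 131 CPM with vehicle and 176, 166 and 172 CPM with saringosterol (0.38 ± 0.05, edgeR adjusted p = 5.7e-05; with GW 0.76, adjusted p = 3.6e-11). Abcb4, the phospholipid exporter of the bile canaliculus, was the raised member of 16 tested genes of bile acid synthesis and transport, at 41.7, 35.7 and 44 CPM with vehicle and 46.8, 57.4 and 51.5 CPM with saringosterol (0.36 ± 0.08, edgeR adjusted p = 0.013), and its call was lost without saringosterol library 2 (adjusted p up to 0.18). The bile acid CoA ligase Slc27a5 was the lowered one (-0.18 ± 0.05, edgeR adjusted p = 0.047, and up to 0.26 without saringosterol libraries 1, 2 or 3 or vehicle libraries 1 or 3). Among all genes tested, 0.888% were called higher and 1.02% lower. Ankrd1, a target of YAP in cultured cells, was at 70.0, 85 and 74.2 CPM with vehicle and 107, 93.4 and 101 CPM with saringosterol (0.39 ± 0.07, edgeR adjusted p = 0.0014). It was 1 of 3 raised members of 24 cytoskeleton and matrix genes (0.888% of all genes rose). The others were S100a6 and Tagln2 (0.25 and 0.18, edgeR adjusted p = 0.0055 and 0.049). The call of S100a6 was lost without vehicle library 3 (0.083). That of Tagln2 was lost without saringosterol libraries 1 or 2 or vehicle libraries 1, 2 or 3 (up to 0.21).

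Cytokine and NF-kB genes were called higher in a larger share than all genes. Of 27 listed, 21 were tested, 3 rose (0.888% of all genes rose) and none fell, with a median of 0.04. In 5 of them every saringosterol library lay above every vehicle library (9.42% of all genes), and in 1 every one lay below (9.94%). Tnf, Il1a, Il1b, Il6, Cxcl5 and Nos2 were too low to be tested. Il1rn (chr2:24336853-24351494), the secreted antagonist of the IL-1 receptor, stood at 12.6, 13.7 and 14 CPM with vehicle and 17.9, 22.4 and 20.5 CPM with saringosterol (0.59 ± 0.10, edgeR adjusted p = 0.001). Its groups did not overlap, as in 9.42% of all genes in that direction, and the call held without each library in turn. The chemokine Ccl2 was at 263, 279 and 259.8 CPM with vehicle and 348, 283 and 308 CPM with saringosterol (0.23 ± 0.06, edgeR adjusted p = 0.029) and Cxcl10 at 181, 164 and 172 CPM with vehicle and 195, 205 and 207 CPM with saringosterol (0.23 ± 0.05, adjusted p = 0.0072). The call of Ccl2 was lost without saringosterol library 1 or vehicle libraries 1 or 3 (adjusted p up to 0.19) and that of Cxcl10 without saringosterol library 2 or vehicle library 3 (0.069). The chemokine Cxcl13 rose by 0.64 ± 0.14 (edgeR adjusted p = 0.015; up to 0.083 without saringosterol libraries 2 or 3 or vehicle libraries 1 or 3). Of 25 acute phase genes, 2 rose, Cp and Saa1 (0.20 and 0.18, adjusted p = 0.0092 and 0.02), and Serpina3n fell (-0.18, 0.042); these calls were lost without vehicle library 3 for Cp, saringosterol libraries 1 or 2 or vehicle library 3 for Saa1 and saringosterol libraries 2 or 3 or vehicle libraries 1 or 3 for Serpina3n, with adjusted p up to 0.093, 0.14 and 0.27. Over all genes, 0.888% rose and 1.02% fell. In 7 of the 25 acute phase genes every saringosterol library lay above every vehicle library (9.42% of all genes), and in 4 every one lay below (9.94%). None of 20 interferon-stimulated genes, 21 complement genes, 20 lysosomal genes or 16 clock genes was called. Of the interferon-stimulated genes 17 were below 0 (median -0.11), against 49.9% of all genes, and in 8 of the lysosomal genes every saringosterol library lay below every vehicle library, against 9.94% of all genes.

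Other genes of hepatocyte metabolism changed by less than those of cholesterol synthesis (-0.42), on the medians of their lists. Of 20 genes of the urea cycle and amino acid catabolism, 18 were below 0 (49.9% of all genes), 3 fell (1.02% of all genes), 7 had non-overlapping lower libraries (9.94%), and the median was -0.14. Gnmt, a glycine methyltransferase of methionine metabolism, was at 43.1, 43.3 and 46 CPM with vehicle and 33.8, 34.2 and 31 CPM with saringosterol (-0.42 ± 0.06, edgeR adjusted p = 0.0003), and this call held without each library in turn. Those of Bhmt (-0.55, adjusted p = 0.043) and Hpd (-0.31, 0.033) did not, with adjusted p up to 0.17 without saringosterol libraries 1, 2 or 3 or vehicle libraries 1, 2 or 3 and up to 0.16 without saringosterol libraries 2 or 3 or vehicle libraries 1 or 3. Of 28 genes of drug metabolism 3 fell (1.02% of all genes), Cyp2f2, Cyp2d9 and Cyp3a11, with a list median of -0.13. In 9 of the 28 every saringosterol library lay below every vehicle library (9.94% of all genes), and in 2 every one lay above (9.42%). Cyp2f2, a marker of periportal hepatocytes, was at 228, 216 and 232 CPM with vehicle and 197, 181 and 185 CPM with saringosterol (-0.27 ± 0.05, edgeR adjusted p = 0.0011). Of the 8 periportal markers, all tested, 2 fell, 1 rose and the median was -0.22: beside Cyp2f2, the histidine ammonia-lyase Hal fell (-0.31, 0.0025; 0.052 without vehicle library 3), and the lipid droplet protein Hsd17b13 rose (0.28, 0.0063; up to 0.07 without saringosterol library 2 or vehicle library 3). None of the 7 tested pericentral markers was called (median -0.08). The falls of Cyp2d9 (-0.27, 0.0097) and Cyp3a11 (-0.18, 0.042) were lost without saringosterol library 2 or vehicle library 3 and without saringosterol libraries 1, 2 or 3 or vehicle libraries 2 or 3, respectively (up to 0.13 and 0.24). The 22 genes of fatty acid oxidation and PPAR alpha had a median of -0.06 and 2 lowered members (1.02% of all genes fell). These were Acaa1b (-0.39, 0.016) and Creb3l3 (-0.20, 0.046), both lost without single libraries (up to 0.16 and 0.28, each without vehicle library 3). Cpt1a, the gate of mitochondrial fatty acid oxidation, stood at -0.10 ± 0.06 (adjusted p = 0.38) and Cyp8b1, of bile acid synthesis, at 0.04 ± 0.13 (0.91). Of 20 genes of endoplasmic reticulum stress and the amino acid response, 2 rose (0.888% of all genes rose) and 0 fell, with a median of 0.04. They were the chaperone Hsp90b1 (0.24, 0.0072) and the stress factor Atf3 (0.21, 0.0092), both lost without saringosterol library 2 among others (0.092 and 0.1). In 9 of the 20 every saringosterol library lay above every vehicle library, against 9.42% of all genes, and in 0 below. With GW, 7 of the 20 were called higher (0.721% of all genes) and 0 lower.

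The response of lipid genes was then set against that of microglia and BMDM given the same dose. Interaction tests in 1 fit of all 27 libraries called 224 of 18979 genes (1.18%) for hepatocytes minus microglia, 52 higher (0.274%) and 172 lower (0.906%), and 1918 genes (10.1%) for hepatocytes minus BMDM, 594 higher (3.13%) and 1324 lower (6.98%). The first total was 148 without saringosterol library 2 of the hepatocytes, 141 and 135 without saringosterol libraries 1 and 2 of the microglia and 131 without their vehicle library 2; the second was 1220 without vehicle library 1 of BMDM. Levels in this fit are on the scaling of all 27 libraries. Of the 17 LXR targets, 9 responded lower in hepatocytes than in microglia and 11 lower than in BMDM, and none higher. Abca1 changed to 1.14 times its vehicle level in hepatocytes, 3.28 times in microglia and 2.89 times in BMDM. The interactions were -1.52 ± 0.11 against microglia (edgeR adjusted p = 2.1e-09) and -1.34 ± 0.11 against BMDM (adjusted p = 2e-08). Its vehicle level was 50.9 CPM in hepatocytes, 754 CPM in microglia and 609 CPM in BMDM. Scd1 was at 0.934, 2.68 and 3.03 times vehicle in the same order, with interactions of -1.52 ± 0.17 (edgeR adjusted p = 2.1e-05) and -1.70 ± 0.15 (3.6e-07). For Srebf1 the ratios were 0.865, 1.63 and 1.84, and the interactions -0.91 ± 0.12 (edgeR adjusted p = 2.8e-05) and -1.09 ± 0.12 (6.7e-07). Fasn was at 0.671 times vehicle in hepatocytes, 1.38 times in microglia and 1.49 times in BMDM (-1.04 ± 0.22, edgeR adjusted p = 0.021, and -1.15 ± 0.22, 0.0028). Its difference from microglia was lost without any of 7 single libraries (saringosterol 1 or 2 or vehicle 1 or 3 of the hepatocytes, saringosterol 1 or 2 or vehicle 2 of the microglia), with an adjusted p of up to 0.068.

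The phospholipid transfer protein gene Pltp was at 0.916, 2.04 and 2.11 times vehicle in hepatocytes, microglia and BMDM, and Lpcat3 at 0.921, 1.27 and 1.46 times. Apoe was at 0.904, 1.3 and 1.3 times and Nr1h3 at 0.896, 1.28 and 1.35 times. All 8 interactions of these 4 genes were called lower in hepatocytes, with edgeR adjusted p from 7.9e-10 (Pltp against BMDM) to 0.021 (Nr1h3 against microglia). The latter was lost with limma-voom (adjusted p = 0.096) and, with an adjusted p of up to 0.068, without saringosterol library 1 or vehicle library 1 of the hepatocytes or without saringosterol library 1 or 2 or vehicle library 1 or 3 of the microglia. Abcg1 was near the floor in hepatocytes, at 0.115 CPM in vehicle-treated hepatocytes against 363 CPM in microglia and 430.3 CPM in BMDM (edgeR adjusted p = 0.61 and 0.4).

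For the cholesterol genes the order was different. Of the 19 members, 4 had a higher (less negative or more positive) response in hepatocytes than in microglia and 10 than in BMDM, and none a lower one. Sqle was at 0.729 times vehicle in hepatocytes, 0.391 times in microglia and 0.288 times in BMDM (1.33 ± 0.22 against BMDM, edgeR adjusted p = 0.00089; 0.90 ± 0.22 against microglia, 0.056). Cyp51 was at 0.523, 0.376 and 0.312 times (0.74 ± 0.18, 0.012; 0.47 ± 0.18, 0.25), and Hmgcs1 at 0.610, 0.566 and 0.445 times (0.45 ± 0.09, 0.0017; 0.11 ± 0.10, 0.71). Srebf2 and Insig1 had no called interaction; Srebf2 was at 0.663, 0.608 and 0.565 times (0.13 ± 0.13, adjusted p = 0.76, and 0.23 ± 0.13, 0.27) and Insig1 at 0.486, 0.649 and 0.617 times (-0.42 ± 0.16, 0.26, and -0.35 ± 0.16, 0.19). Without saringosterol library 3 of BMDM the interaction of Srebf2 against BMDM was called (0.42, adjusted p = 0.0020), and that of Insig1 was -0.10 (0.62). Against microglia, Insig1 was called without the filter on low counts (-0.41, adjusted p = 0.045).

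**Figure D4:**
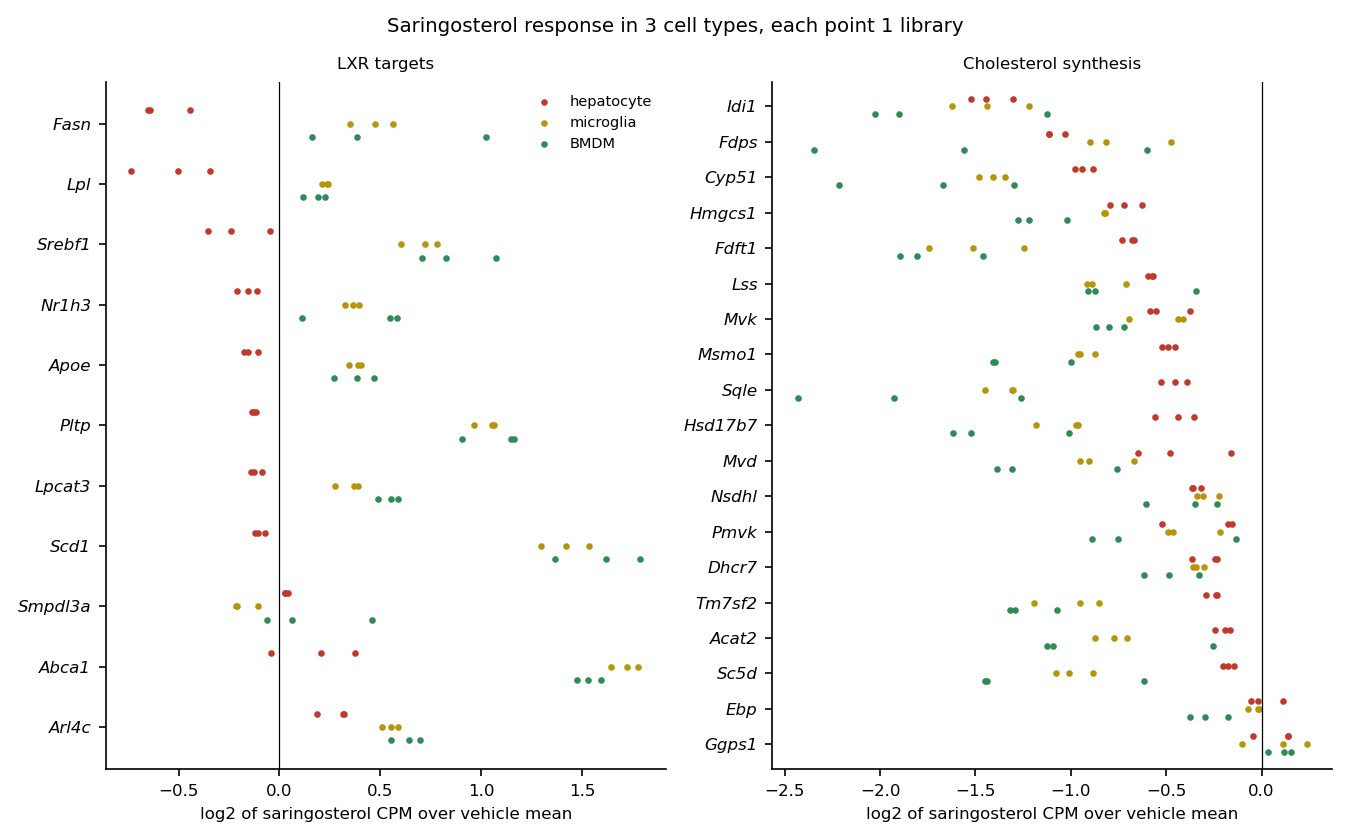
Log2 of each saringosterol library's CPM over the vehicle mean of the same cell type, for LXR targets (left) and cholesterol synthesis genes (right) with a vehicle mean of at least 1 CPM in hepatocytes, microglia and BMDM (3 libraries per cell type). Scd1, Pltp, Lpcat3, Apoe and Nr1h3 lie above 0 in all libraries of microglia and BMDM and below 0 in all 3 hepatocyte libraries, while Cyp51, Hmgcs1 and Sqle lie below 0 in all libraries.

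Pseudogenes made up much of the raised set. Of 2484 processed pseudogenes tested 55 rose and 5 fell, so that 2.42% were called, against 1.91% of all genes. Over all genes, 0.888% rose and 1.02% fell. The median log2 change of the processed pseudogenes was 0.23, against -0.021 for the 12429 protein-coding genes. With GW the median of the processed pseudogenes was 0.062, 0 rose and 1 fell. They held 1.37, 1.48 and 1.32% of the counts with saringosterol, 1.22, 1.16 and 1.24% with vehicle and 1.29, 1.25 and 1.22% with GW, so that saringosterol was above vehicle without overlap. The mitochondrial share of counts was 0.842, 0.837 and 0.694% with saringosterol and 0.621, 0.696 and 0.626% with vehicle, with a slight overlap. A processed pseudogene is a reverse-transcribed copy of an mRNA, and its reads can be hard to assign. Of all called pseudogenes, 65 higher and 5 lower, each was set beside the protein-coding gene with which it shares most 31-base stretches. For 43 of the 65 raised pseudogenes that share was at least 50%, and of their 39 distinct coding partners tested 1 was called higher and 3 lower, with a median log2 change of -0.036. Of the 5 lowered pseudogenes, 4 shared at least 50% with a coding gene. Their 4 partners were all below 0, and 3 were called lower: Gm13502 matched Idi1 (all stretches shared), Gm3571 matched Fdps and Gm6166 matched Fabp5 (68.6%). Gm4735 matched Eno1b (94.9%), which was not called (-0.093, edgeR adjusted p = 0.32). Ribosomal genes gave a median of -0.05 and 0 higher and 5 lower calls for 93 ribosomal protein genes, and a median of 0.27 with 8 higher and 0 lower calls for 158 pseudogenes named after them. The part of these shares in the called changes was not tested.

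**Figure D5:**
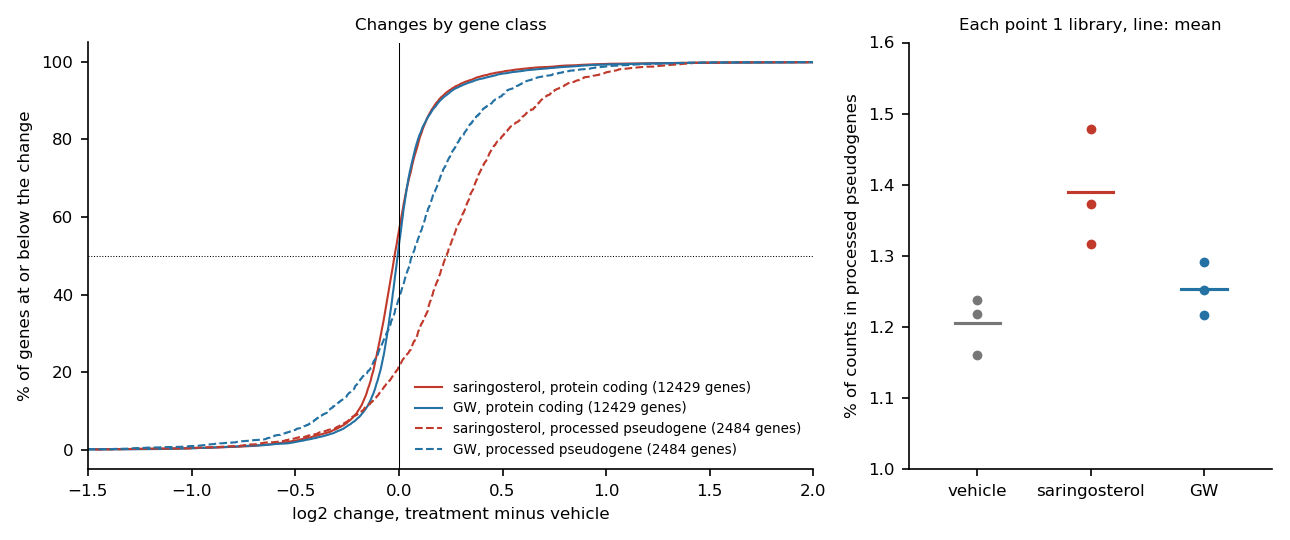
Left, cumulative percent of genes by log2 change for 12429 protein-coding genes and 2484 processed pseudogenes, with saringosterol and with GW against vehicle; right, percent of each hepatocyte library's counts in processed pseudogenes (axis from 1, 1 point per library). With saringosterol the pseudogene curve is shifted to higher values, and its 3 libraries lie above the 3 vehicle libraries.

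Other raised genes belong to families with near-identical copies. The major urinary protein gene Mup4 was at 2.48, 2.65 and 3.03 CPM with vehicle and 6.78, 8.03 and 4.22 CPM with saringosterol (1.22 ± 0.21, edgeR adjusted p = 0.0011). Mup18 and Mup6 rose by 1.29 ± 0.23 and 0.77 ± 0.18 (edgeR adjusted p = 0.0072 and 0.016), calls that were lost without vehicle library 3 (0.071) and without saringosterol libraries 1 or 2 or vehicle libraries 1 or 3 (up to 0.11). The myosin light chain gene Myl12b rose by 0.77 ± 0.13 (adjusted p = 0.0011). The levels of these genes are uncertain for the same reason as those of the pseudogenes. The mitochondrial tRNA mt-Tq was at 1.71, 1.16 and 1.68 CPM with vehicle and 4.04, 4.11 and 4.86 CPM with saringosterol (1.51 ± 0.20, edgeR adjusted p = 2.8e-05), in libraries primed with oligo-dT. Gapdh, a common reference gene with many pseudogenes, was lower (-0.25, edgeR adjusted p = 0.023), with an adjusted p of up to 0.18 without saringosterol libraries 2 or 3 or vehicle libraries 1 or 3.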

How the data were processed

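Per the labels' protocols, column-purified RNA was made into cDNA with a SMARTer Ultra Low kit and oligo-dT. The submitters' processing notes name bcl2fastq, STAR 2.5.1a with the build GRCm38, and featureCounts 1.4.6-p5 of Subread; which annotation release and strand setting were used, and how multiply mapping reads were treated, is not given, so reads of overlapping and antisense genes cannot be told apart. All tests used the count values that the authors deposited, and their TPM values served only to compare levels between genes. Of 55774 table lines, repeats of 168 identifiers were dropped. In all 9 pairs of hepatocyte replicates, chi-square per degree of freedom was 4.70 to 11.6, above sampling noise.

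The 9 hepatocyte libraries were fitted together with edgeR 4.0.16 in R 4.3.3 (filterByExpr, TMM, robust quasi-likelihood F test, Benjamini-Hochberg over all genes tested). "Adjusted p" means this value, except for interactions and alternative settings, where it comes from their own fit and tool. CPM are on TMM-scaled library sizes, and log2 changes carry their standard error (SE). Interactions were contrasts in a fit of all 27 libraries. DESeq2 1.42.0, limma 3.58.1 (voom), other scalings and filters, a replicate block and leaving out each library were alternatives; a fit of protein-coding genes only and the search for the coding partners of pseudogenes were chosen after seeing the data. On simulated counts for 15654 genes, 95% of 100 genes changed by 1 and 70% of 100 genes changed by 0.5 on the log2 scale were recovered, with 8 false calls.

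The members and lists were chosen with earlier results of these data known. Named genes were the 12 largest called rises and falls with at least 1 CPM and no overlap, the 6 smallest p-values per direction, up to 6 called members per list and a fixed set of LXR, SREBP and cholesterol genes. Of these and of the lists, 4 genes are not reported here; the lists are counted without them. Promoters are from RefSeq.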

Additional observations from a re-analysis of the deposited data

Results flagged for a closer look

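Of the fixed set of genes named for this comparison whatever their result, 8 lipid genes had a change with saringosterol that differed between hepatocytes and both other cell types by the interaction test (log2 response in hepatocytes minus that in the other cells, edgeR adjusted p under 0.05). Abca1 differed by -1.52 from microglia and -1.34 from BMDM, Scd1 by -1.52 and -1.70, Pltp by -1.16 and -1.20, and Srebf1 by -0.91 and -1.09. Fasn differed by -1.04 and -1.15, Apoe by -0.53 and -0.52, Nr1h3 by -0.52 and -0.59, and Lpcat3 by -0.46 and -0.66. The calls of Fasn and Nr1h3 against microglia depend on single libraries, as given above. Other lipid genes differed too and are counted by list above.

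Of the same set, 4 further genes were called against BMDM alone in the main fit. The cholesterol genes responded less negatively in hepatocytes than in BMDM, by 0.45 for Hmgcs1, 1.33 for Sqle and 0.74 for Cyp51. Sqle was also called against microglia in 4 of 18 alternatives. Over these 18 its difference from microglia was 0.85 to 0.95, with an edgeR or limma-voom adjusted p of 0.0017 to 0.16. The chemokine Ccl2 differed by -1.71 (edgeR adjusted p = 0.010), at 1.15 times vehicle in hepatocytes and 3.69 times in BMDM, and by -1.0 without saringosterol library 3 of BMDM. Cell type and treatment medium cannot be told apart in any of these differences.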

How the results depend on the processing

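The counts of called genes varied with the settings more than the named sterol genes did. Of 67 named and called genes, 28 (9 higher, 19 lower) passed the threshold in every alternative, Idi1, Insig1, Cyp51, Hmgcs1, Srebf2 and Fasn among them; 39 lost the call in a leave-out. Saringosterol calls (307; 143 higher, 164 lower) were 522 with DESeq2 (311 lower), 491 without the filter (294 higher), 99 lower with coding genes only, and ran from 86 to 803 (38 to 418 higher, 42 to 385 lower) over the leave-outs. The same leave-outs gave 9 to 13 lowered cholesterol, 3 to 6 SREBP (5 with DESeq2), 5 to 8 fatty acid and 1 to 3 LXR genes, and 0 to 1 raised LXR genes; the raised one, also found without the filter (1), was Abca1. GW gave 94 lower with DESeq2 and 96 without the filter, and 125 to 220 calls over leave-outs (80 to 137 higher, 35 to 83 lower). Hepatocytes minus microglia gave 124 higher without the filter and 91 with coding genes, and 131 to 269 in leave-outs (31 to 60 higher, 93 to 215 lower). Hepatocytes minus BMDM gave 692 lower with coding genes, and 1220 to 2381 in leave-outs (375 to 724 higher, 842 to 1657 lower). The causes were not tested.

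With the replicate block, saringosterol gave 782 calls (387 higher, 395 lower), with 6 lowered SREBP, 1 raised and 2 lowered LXR genes, and GW 286 (115 lower). Same-numbered vehicle and saringosterol libraries had correlations of 0.024, -0.004 and -0.025 in their deviations, so the numbers were not taken as pairs. With 3 libraries a group an exact permutation test cannot go below 0.10. Levels under about 0.1 CPM, such as Abcg1 and Mylip, rest on a few counts.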

Other observations

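Lowered genes outside the fixed lists, chosen after their values were seen, included several with known links to sterols or lipids. Lrp8, a lipoprotein receptor, stood at 11.1, 13.6 and 15.4 CPM with vehicle and 8.07, 10.0 and 8.24 CPM with saringosterol (-0.60 ± 0.12, edgeR adjusted p = 0.0047). Tmem97, a sterol-regulated membrane protein that binds NPC1, was at 60.0, 57.7 and 57.5 CPM with vehicle and 48, 44.5 and 38.7 CPM with saringosterol (-0.42 ± 0.07, edgeR adjusted p = 0.0006). Aacs, which makes acetoacetyl-CoA for lipid synthesis, fell by 0.22 (edgeR adjusted p = 0.015). Pcyt2, of phosphatidylethanolamine synthesis, was at 136, 122 and 128 CPM with vehicle and 106, 97.3 and 106 CPM with saringosterol (-0.32 ± 0.05, edgeR adjusted p = 0.00046), and Rdh11, a retinol dehydrogenase, at 64.3, 63.8 and 64.3 CPM with vehicle and 56.4, 52.6 and 54.2 CPM with saringosterol (-0.24 ± 0.06, adjusted p = 0.019). In each of these 5 genes the groups did not overlap. Mmab, a cobalamin enzyme whose gene lies beside Mvk on chromosome 5 (chr5:114431034-114444060 and chr5:114444269-114460591), was lower too (-0.44 ± 0.12, edgeR adjusted p = 0.049). With GW, 1 µM, the log2 change of these genes lay between -0.02 (Lrp8) and 0.08 (Rdh11), and none was called.

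Other values stand without a comparison. Snord13, a small nucleolar RNA with near-identical copies, was at 3.03, 4.05 and 3.82 CPM with vehicle and 8.5, 8.17 and 18.7 CPM with saringosterol, where the third library lies apart from the others. Ampd1 was at 0.397, 0.423 and 0.217 CPM with vehicle and 0.0662, 0 and 0 CPM with saringosterol, that is at or under the floor of 3 counts in all saringosterol libraries. The ribosomal protein genes Rpl3, Rpl13, Rpl10 and Rpsa were called lower by 0.18 to 0.23 on the log2 scale.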
